A study of Mus musculus with 5 samples.

Results

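The Maf, Bach and Spic genes were followed across all libraries of a mouse leukaemia study: Maf, Maff, Mafg, Mafk, Bach1, Bach2 and Spic. They were chosen by symbol, and each of the 7 symbols matched 1 of the 27526 rows of the authors' normalized table. RNA was sequenced from cells positive for the receptor Kit, described as stem cells of a leukaemia driven by AML1-ETO9a, a shortened RUNX1-RUNX1T1 fusion. All groups carried this fusion model. The 2 libraries labelled wild-type (Plcg1 +/+, numbered 1 and 3) were compared with 3 libraries labelled deleted (Plcg1 -/-, numbered 2, 4 and 6), in which Plcg1 had been removed conditionally. Plcg1 encodes phospholipase C-γ1, which makes the second messengers diacylglycerol and inositol trisphosphate. For the Cre driver, the age of the mice and their number, the sources used here say nothing, so p-values here reflect only how far these libraries differ among themselves, which may be technical.

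MAF proteins are basic leucine zipper factors that bind DNA as dimers. The large MAF proteins, c-MAF among them, carry an activating domain and shape macrophage identity. The small MAF proteins (MAFF, MAFG, MAFK) lack that domain and act through partners: with NRF2 or NF-E2 they activate genes, and with BACH1 or BACH2 they repress them, at Maf recognition and antioxidant response elements. Heme binds BACH1 and BACH2 and releases their targets, such as heme oxygenase and ferritin. SPI-C, a relative of PU.1, is induced by heme when BACH1 is lost and drives the iron-recycling macrophages of the splenic red pulp.

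The libraries held 37306507 to 57133771 gene counts. Plcg1 was at 22.1 and 34 CPM (read counts relative to the library's size, scaled by TMM) in the wild-type libraries and at 53.0, 26.9 and 37.1 CPM in deleted 2, 4 and 6. Counts per gene cannot show whether single exons were removed, so every group name and direction refers to the label. Deleted 6 stood apart: its Spearman correlation with the other libraries across genes was 0.871 to 0.918, against 0.944 to 0.983 among the other 4. Kit was at 3.08 CPM there, 26.8 and 32.1 CPM for the wild-type pair, and 672 and 304 CPM for deleted 2 and 4, so the level of this sort marker went against the label in deleted 6 most of all. The file names place wild-type 1 in sequencing lane 3, deleted 6 in lane 5 and the rest in lane 4. The summed level of 10 macrophage markers was 15420 and 15360 CPM in wild-type 1 and 3, and 17290, 31600 and 118500 CPM in deleted 2, 4 and 6. For 9 mast cell and basophil markers the sums were 119 and 177 CPM, then 11300, 5088 and 38.1 CPM. The part of these cell type markers in the results was not tested. In bulk RNA, a change in the number of cells of a type cannot be told apart from a change in RNA per cell.

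Between the genotype labels Spic and Bach2 had the largest log2 fold changes, followed by Maf, Mafk and Bach1, with Mafg and then Maff the smallest. For 4 of the 7 genes (Mafk, Bach1, Bach2 and Spic) the deleted libraries all exceeded the wild-type pair, and for 1 (Mafg) they all fell short of it. Among all 16120 tested genes the share lying wholly above was 22.4% and wholly below 23.7%. No member passed edgeR's quasi-likelihood test across all 5 libraries, where 0% of all genes passed in either direction. At an unadjusted p under 0.05 Bach2 and Spic were higher and none was lower, where 9.44% and 5.42% of all genes were. DESeq2 called Bach2 higher (5.75% of all genes were called higher and 3.05% lower), and limma-voom, with quality weights per library, called none of the 7 (7.63% and 5.87%). With no filter on low counts edgeR called 0 of the 7 (0.539% and 0.380% of all genes), as it did in lane 4 alone (1.26% and 0.779%). Without deleted 6, edgeR and DESeq2 each called Bach2 alone (7.89% and 5.07% of all genes in edgeR, 10.9% and 7.66% in DESeq2) and limma-voom called 0 (7.53% and 4.99%). The median log2 fold change (deleted minus wild-type) of the 7 genes was 0.49, against 0.01 for all tested genes. All 7 passed the filter on low counts. Spic did so only through the deleted libraries, at 57, 41 and 43 counts, since wild-type 3 had 2 counts. Its p-values and its place beside the shares of all tested genes carry that selection.

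**Figure D1:**
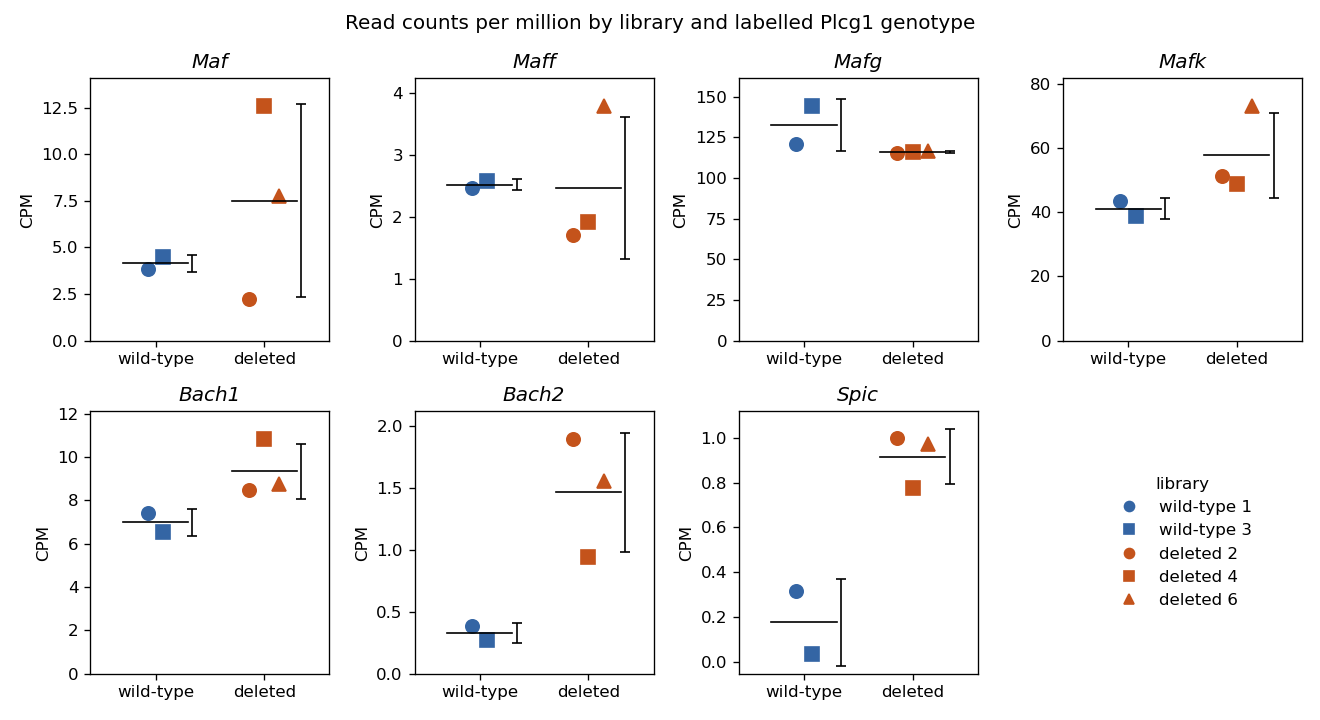
Level of each gene in CPM (vertical axis, from 0; the Spic axis runs below 0 to fit the error bar) in each library, by labelled genotype; horizontal lines are group means and bars 1 SD (n = 2 wild-type, n = 3 deleted). Bach2 and Spic are higher in each deleted library than in both wild-type libraries, Mafg is nearly level among deleted libraries, and Maf spreads from 2.21 to 12.6 CPM among them.

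Bach2, the repressor best known from B cells and also active in T cells and progenitors, was low everywhere and higher under the deleted label. It stood at 0.386 and 0.270 CPM in wild-type 1 and 3, from 16 and 15 counts. Deleted 2, 4 and 6 held 1.89, 0.944 and 1.56 CPM, from 108, 50 and 69 counts. The groups did not overlap, and the exact 95% Poisson intervals did not either: the highest upper bound in wild-type was 0.626 CPM and the lowest lower bound in deleted was 0.701 CPM. Such intervals cover counting error only. Means by label were 0.328 ± 0.0817 CPM for wild-type (SD, n = 2) and 1.47 ± 0.481 CPM for deleted (SD, n = 3). The fitted log2 change was 2.16 ± 0.53 (SE), with an edgeR adjusted p of 0.220. Bach2 rose in DESeq2 across all 5 libraries (log2 fold change 2.17, adjusted p = 0.00420) and, without deleted 6, in edgeR (2.13 ± 0.54, adjusted p = 0.0488). It did not pass in limma-voom across all 5 libraries (1.75, adjusted p = 0.0599) or without deleted 6 (2.06, adjusted p = 0.0633), or in lane 4 alone in edgeR, which compares wild-type 3 with deleted 2 and 4 (2.39 ± 0.74, adjusted p = 0.190).

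Of 6 B cell markers, 5 were at or near 0 in every library, and the 6 summed to 16.2 and 21.4 CPM in wild-type and to 4.1, 7.04 and 0.158 CPM in deleted 2, 4 and 6. Pax5, the B cell identity factor, reached at most 0.0378 CPM, in 1 library. Ms4a1 (CD20) reached at most 0.151 CPM. Cd79b, a chain of the B cell receptor complex, carried that sum, at 15.6 and 20.9 CPM in wild-type and at 3.91, 6.40 and 0 CPM in deleted 2, 4 and 6, so it was lower in each deleted library than in both wild-type libraries. Bach2 was also at 1.56 CPM in deleted 6, where the mast cell and basophil markers summed to less than in either wild-type library. In the edgeR fit without deleted 6, in which Bach2 passed, all 9 mast cell and basophil markers rose too. The T cell receptor chains Cd3e and Cd3g had 0 counts in every library. The part of these cell types in the level of Bach2 was not tested.

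Spic had the highest ratio of group means among the 7 genes, on few counts. It stood at 0.313 and 0.0360 CPM in wild-type 1 and 3, from 13 and 2 counts, and at 0.999, 0.774 and 0.972 CPM in deleted 2, 4 and 6, from 57, 41 and 43 counts. The deleted libraries were alike and all above wild-type, while both wild-type libraries differed from each other. Means by label were 0.175 ± 0.196 CPM for wild-type (SD, n = 2) and 0.915 ± 0.123 CPM for deleted (SD, n = 3). From summed counts, 15 against 141, the ratio was 5.91 with an exact 95% interval of 3.46 to 10.8 for counting error only. On the log2 scale the difference was 2.42 ± 0.91 (SE), with an edgeR adjusted p of 0.322. It was 1.54 without wild-type 3 and 4.57 without wild-type 1, so its size rested on which wild-type library was kept. Without deleted 6 it was 2.42 ± 0.85 (adjusted p = 0.117), and in lane 4 alone 4.55 ± 0.88 (adjusted p = 0.0927). Spic was nearly level among the deleted libraries, whose summed macrophage markers ran from 17290 to 118500 CPM. The part of these markers in the level of Spic was not tested.

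The proximal promoters of Bach2 and Spic are shown because both genes were higher under the deleted label and because Maf, BACH and PU.1-type factors act through short DNA elements. Each runs from 250 bases before to 50 after a RefSeq start on GRCm38.p6 (the mm10 build). Capitals mark matches, on either strand, to TGANNNNGC (the core bound by a small MAF with a partner), TGCTGA (an arm of the Maf recognition element) or GAGGAA (an ETS-type core, as bound by PU.1 and SPI-C); matches may overlap.
Bach2, chr4:32417185-32417484, plus strand: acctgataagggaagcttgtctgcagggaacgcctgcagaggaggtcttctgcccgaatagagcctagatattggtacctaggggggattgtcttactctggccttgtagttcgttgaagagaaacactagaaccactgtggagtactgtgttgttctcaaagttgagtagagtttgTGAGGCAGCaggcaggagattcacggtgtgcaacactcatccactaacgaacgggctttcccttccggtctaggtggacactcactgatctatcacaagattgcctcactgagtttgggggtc
Spic, chr10:88682974-88683273, minus strand: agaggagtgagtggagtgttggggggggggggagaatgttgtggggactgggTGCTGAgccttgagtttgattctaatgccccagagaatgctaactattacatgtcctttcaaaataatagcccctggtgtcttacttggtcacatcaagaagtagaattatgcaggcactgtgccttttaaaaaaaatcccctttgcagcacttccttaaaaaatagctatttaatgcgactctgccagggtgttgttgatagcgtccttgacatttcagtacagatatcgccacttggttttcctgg
The Bach2 window held 1 TGANNNNGC match, and the Spic window held 1 TGCTGA match. Of the 32851 promoters in the table, 41.3% held TGANNNNGC, 19.5% TGCTGA and 28.3% GAGGAA, so single matches were common. RefSeq promoters were matched for 6 of the 7 genes, 8 windows in all. Of the 8 windows, 4 had a TGANNNNGC match, 3 a TGCTGA match and 2 a GAGGAA match. In GENCODE M21 the Bach2 gene (chromosome 4, 32238804 to 32586108, plus strand) begins upstream of this RefSeq start, and Spic lies on chromosome 10 at 88674772 to 88685015. The antisense gene Bach2os shares 537 exon bases with Bach2 and had 1 to 14 counts per library. The library kits, SMART-Seq v4 and Nextera XT, do not mark strand, so reads of the pair within the shared bases cannot be told apart.

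Bach1 (chromosome 16, 87698945 to 87733346, plus strand), the heme-sensing repressor, was modestly higher under the deleted label. It stood at 7.42 and 6.54 CPM with Plcg1 wild-type and at 8.48, 10.8 and 8.75 CPM in deleted 2, 4 and 6, without overlap. Means by label were 6.98 ± 0.626 CPM for wild-type (SD, n = 2) and 9.35 ± 1.28 CPM for deleted (SD, n = 3). The log2 fold change was 0.42 ± 0.27 (SE), with an edgeR adjusted p of 0.482; leaving out deleted 6 gave 0.48 ± 0.24 and 0.248. Per kilobase of exon, Bach1 exceeded Bach2 in each library, by 31.0 and 38.9 times in wild-type and by 7.21, 18.4 and 9.02 times in deleted 2, 4 and 6. Bach2 thus made up 3.13% and 2.504% of the summed Bach level per kilobase in wild-type and 12.2%, 5.14% and 9.98% in the deleted libraries, with no overlap between the labels.

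Among the small Maf genes, Mafg was the most abundant and the least variable. Mafg (chromosome 11, 120625117 to 120633600, minus strand) stood at 121 and 144 CPM with Plcg1 wild-type and at 115, 116 and 116 CPM in deleted 2, 4 and 6. The deleted libraries were nearly equal, and the gap to wild-type 1 was smaller than the gap between both wild-type libraries. Its range over the 5 libraries was 0.32 on the log2 CPM scale, smaller than that of all but 5.4% of tested genes, whose median range was 1.25. Means by label were 133 ± 16.1 CPM for wild-type (SD, n = 2) and 116 ± 0.479 CPM for deleted (SD, n = 3), a log2 fold change of -0.19 ± 0.17 (SE), with an edgeR adjusted p of 0.578. Mafg shares 124 exon bases at its end with Sirt7, a neighbour on the same strand. Sirt7 had 4850 to 7454 counts per library, against 5025 to 7989 for Mafg, and the effect of the overlap was not tested.

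Mafk (chromosome 5, 139791513 to 139802653, plus strand), which like Mafg pairs with NF-E2 and NRF2, was higher under the deleted label, most of all in deleted 6. It stood at 43.4 and 38.8 CPM with Plcg1 wild-type and at 51.3, 48.8 and 72.9 CPM in deleted 2, 4 and 6. The groups did not overlap. Means by label were 41.1 ± 3.24 CPM for wild-type (SD, n = 2) and 57.7 ± 13.3 CPM for deleted (SD, n = 3). The fitted log2 change was 0.49 ± 0.25 (SE), with an edgeR adjusted p of 0.402; leaving out deleted 6 gave 0.30 ± 0.14 and 0.230. Tmem184a, which overlaps Mafk by 169 exon bases on the opposite strand, had 2 to 7 counts.

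Maff (chromosome 15, 79346621 to 79359076, plus strand), the stress-inducible small Maf, showed no common direction. It stood at 2.46 and 2.58 CPM in wild-type and at 1.70, 1.91 and 3.78 CPM in deleted 2, 4 and 6. Deleted 2 and 4 lay below both wild-type libraries and deleted 6 above them. On the log2 scale the difference was -0.03 ± 0.49 (SE), with an edgeR adjusted p of 0.974; leaving out deleted 6 gave -0.47 ± 0.32 and 0.408. It was positive, at most 0.17, without deleted 2, wild-type 3 or deleted 4.

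The small Maf genes together kept a narrow range. Their summed level was 33.7 and 36.6 CPM per kilobase in wild-type 1 and 3 and 34.4, 33.9 and 40.9 CPM per kilobase in deleted 2, 4 and 6. Mafg made up 64.1% and 70.1% of that sum in wild-type and 59.8%, 61.0% and 50.7% in the deleted libraries. Mafk made up 33.1% and 27.2%, then 38.3%, 36.9% and 45.8%, and Maff 1.91% to 3.56% in all libraries. The Mafg share was lower, and the Mafk share higher, in every deleted library than in both wild-type libraries. No test was run on these shares.

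Maf (chromosome 8, 115682942 to 115707794, minus strand), which encodes c-MAF, varied more among the deleted libraries than between the labels. It stood at 3.83 and 4.49 CPM with Plcg1 wild-type and at 2.21, 12.6 and 7.78 CPM in deleted 2, 4 and 6. Deleted 2 was the lowest and deleted 4 the highest of all 5 libraries, a 5.69-fold span within the label. Means by label were 4.16 ± 0.461 CPM for wild-type (SD, n = 2) and 7.52 ± 5.19 CPM for deleted (SD, n = 3). The log2 fold change was 0.85 ± 0.74 (SE), with an edgeR adjusted p of 0.580. It was 0.26 without deleted 4 and 1.29 without deleted 2. The antisense gene Gm15655, which overlaps Maf exons, had 0 counts in every library.

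Of the other large Maf genes, those described here were at low levels or at 0. Mafa, best known from pancreatic beta cells, was at 1.52 CPM in deleted 6 and at or under 0.321 CPM elsewhere. Nrl, the photoreceptor member, had 0 counts in every library.

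In order of mean level per kilobase, the 7 genes ran from Mafg (21.8 CPM per kilobase over all 5 libraries) through Mafk (13.1), Bach1 (1.36), Maff (0.957), Maf (0.749) and Spic (0.161) to Bach2 (0.102). Mafg and Mafk did not overlap in level. Bach1 and Maff overlapped, as did Maff and Maf, and Spic and Bach2. PU.1 (Spi1), the relative of SPI-C that directs myeloid development, was at 104 to 134 CPM per kilobase, at least 398 times the level of Spic in each library.

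**Figure D2:**
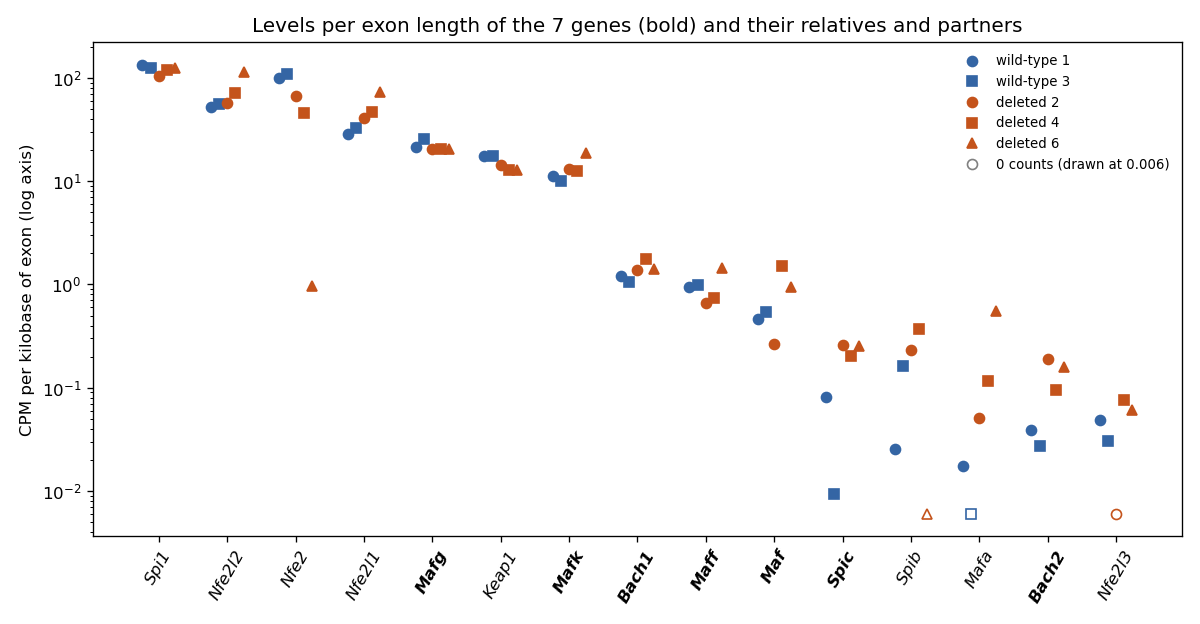
Level per kilobase of exon (vertical log axis, CPM per kilobase) of the 7 genes, in bold, and of the Maf, NRF2-type and PU.1-type relatives, ordered by mean; colour gives the label, symbols the library, and open symbols 0 counts. Mafg and Mafk lie below the NRF2-type partners Nfe2l1 and Nfe2l2. Bach2, Spic and the NRF2-type gene Nfe2l3 lie near the bottom. Nfe2 falls out of its group in deleted 6, at 0.969 CPM per kilobase.

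The partners of the small MAF proteins went in different directions. Nfe2, the p45 subunit of NF-E2 that serves platelet and erythroid genes, stood at 299 and 324 CPM in wild-type 1 and 3, at 200 and 138 CPM in deleted 2 and 4, and only 2.89 CPM in deleted 6. It fell without deleted 6 (log2 fold change -0.87 ± 0.20, edgeR adjusted p = 0.0351), and across all 5 libraries its adjusted p was 0.606. The summed neutrophil markers were at 15080 and 16610 CPM in wild-type, against 12090, 14020 and 104 CPM in deleted 2, 4 and 6; their part in the level of Nfe2 was not tested. Nfe2l1 and Nfe2l2, which encode NRF1 and NRF2, were highest in deleted 6, at 396 and 436 CPM, against 155 to 252 CPM and 197 to 269 CPM in the other libraries. Their log2 fold changes were 0.80 ± 0.32 and 0.59 ± 0.35 (edgeR adjusted p = 0.336 and 0.457). Keap1, the adaptor that marks NRF2 for breakdown, stood at 81.9 and 82.5 CPM in wild-type and at 66.6, 59.99 and 60.4 CPM in deleted 2, 4 and 6 (log2 fold change -0.40 ± 0.16, edgeR adjusted p = 0.335). Of the 4 tested partner genes outside the 7, edgeR called 0 across all 5 libraries (1 lower at an unadjusted p under 0.05, beside 5.42% of all genes) and DESeq2 0. Of the same 4, limma-voom called Nfe2l1 higher and Keap1 lower, beside 7.63% and 5.87% of all genes.

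Genes of heme, iron and antioxidant metabolism, many of them known targets of BACH1 and NRF2, were mostly higher under the deleted label. In 11 of the 14 genes the deleted libraries were all above wild-type and in 0 all below, beside 22.4% and 23.7% of all genes. The median log2 fold change was 1.38, against 0.01 for all tested genes. Across all 5 libraries edgeR called 0 of the 14, though 7 were higher and 0 lower before adjustment (p under 0.05), where 9.44% and 5.42% of all genes were. DESeq2 called 7 higher, beside 5.75% of all genes, and limma-voom 9, beside 7.63%. Neither called any of the 14 lower, beside 3.05% and 5.87% of all genes. Without deleted 6, edgeR called 7 of 14 higher and 0 lower, beside 7.89% and 5.07% of all genes. In lane 4 alone it called 3 higher and 0 lower, beside 1.26% and 0.779%.

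Hmox1, the heme oxygenase that BACH1 represses, stood at 156 and 123 CPM with Plcg1 wild-type and at 243, 438 and 535 CPM in the deleted libraries 2, 4 and 6. The log2 fold change of Hmox1 was 1.54 ± 0.40 (edgeR adjusted p = 0.230), and it rose without deleted 6 (1.30 ± 0.29, adjusted p = 0.0322). Slc7a11, the cystine transporter, stood at 41.5 and 23.3 CPM in wild-type and at 179, 217 and 145 CPM in the deleted libraries. It was the only one of the 14 with an unadjusted p under 0.001 across all 5 libraries (log2 fold change 2.48 ± 0.36, edgeR adjusted p = 0.133). It rose without deleted 6 (2.63 ± 0.28, adjusted p = 0.00303).

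Nqo1, a quinone reductase, stood at 8.80 and 7.67 CPM in wild-type and at 58.7, 28.6 and 29.2 CPM in deleted 2, 4 and 6. Srxn1, which restores oxidised peroxiredoxins, stood at 88.7 and 73.0 CPM and at 240, 266 and 539 CPM. Both rose without deleted 6, by log2 fold changes of 2.42 ± 0.34 and 1.66 ± 0.15 (edgeR adjusted p = 0.00768 and 0.00199). Txnrd1, Blvrb and Prdx1, which encode thioredoxin reductase, biliverdin reductase and a peroxiredoxin, rose in that fit too, by 0.62, 1.117 and 1.53.

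The ferritin chains and the iron exporter differed. Fth1, the ferritin heavy chain, stood at 5431 and 3964 CPM in wild-type 1 and 3, at 7360 and 12061 CPM in deleted 2 and 4, with 34229 CPM in deleted 6 (log2 fold change 1.93 ± 0.85, edgeR adjusted p = 0.363). Slc40a1, which encodes the iron exporter ferroportin, was the 1 gene of the 14 with a negative log2 fold change (-0.52 ± 0.48, edgeR adjusted p = 0.591). It stood at 43.8 and 66.8 CPM in wild-type and at 39.7, 56.0 and 19.6 CPM in deleted 2, 4 and 6. The macrophage marker sum given above was highest in the library where Fth1, Hmox1, Srxn1 and Prdx1 were also highest. In the fit without deleted 6, which called 7 of the 14 genes, 2 of 10 macrophage markers and all 9 mast cell and basophil markers rose as well.

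**Figure D3:**
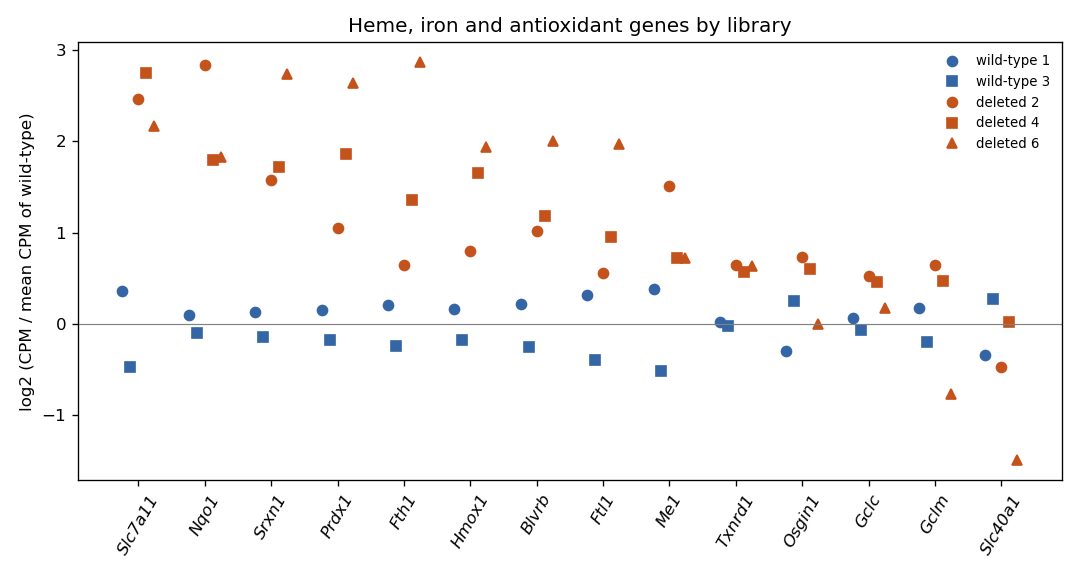
Level of 14 heme, iron and antioxidant genes in each library as log2 of CPM over the wild-type mean (vertical axis), ordered by the edgeR log2 fold change. In 11 genes the 3 deleted libraries lie above both wild-type libraries; Slc40a1, Gclm and Osgin1 overlap.

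Short sites in the promoters of this list are printed because they carry the element that small MAF heterodimers bind. RefSeq promoters were matched for 11 of the 14 genes, 16 promoters in all. A TGANNNNGC match was found in 10 of the 16, from 8 genes, beside 41.3% of all promoters. In 4 genes the match reads TGANTCAGC, a form chosen for display after the matches were seen. It was held by 4 of the 16 promoters, beside 1.19% of all promoters. No Maf, Bach or Spic promoter in the table held TGANTCAGC. The genes of this list were picked for control through Maf recognition-type elements, so these shares are no test of such elements. Capitals mark the match, and each site is written on the strand that reads TGA.
Srxn1, chr2:152105471-152105495, plus strand: attcacccTGAGTCAGCggccgggc
Prdx1, chr4:116685458-116685482, minus strand: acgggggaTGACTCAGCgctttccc
Me1, chr9:86695904-86695928, minus strand: tgccgccgTGACTCAGCgcttctcg
Osgin1, chr8:119437040-119437064, minus strand: cataagcgTGAGTCAGCaggggccc
Of these, Srxn1 and Prdx1 rose without deleted 6. Me1, the malic enzyme, had a log2 fold change of 1.19 ± 0.40 there (edgeR adjusted p = 0.107) and Osgin1 0.68 ± 0.24 (adjusted p = 0.115). A match describes the letters in these windows and is no measurement of binding.

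Of 9 tested genes of the red pulp programme other than Spic, 2 lay wholly above and 3 wholly below wild-type in the deleted libraries. These shares were near those of all tested genes, 22.4% and 23.7%. Vcam1, an adhesion molecule that SPI-C supports in red pulp macrophages, stood at 3.81 and 5.48 CPM in wild-type and at 0.508, 2.02 and 0.9497 CPM in deleted 2, 4 and 6 (log2 fold change -2.0 ± 0.65, edgeR adjusted p = 0.286). Itgad, another red pulp marker, was at or under 0.432 CPM in all libraries, and Treml4 was between 0.806 and 1.51 CPM without a common direction. Adgre1 (F4/80), a general macrophage marker, stood at 195 and 244 CPM in wild-type and at 362, 628 and 731 CPM in the deleted libraries. It rose without deleted 6 (1.19 ± 0.27, edgeR adjusted p = 0.0368). Hpgd, the prostaglandin-degrading enzyme, fell in that fit (-7.45 ± 0.33, adjusted p = 0.000330).

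Of 10 tested genes associated with c-MAF in macrophages, 3 lay wholly above wild-type (Mrc1, Gas6 and Cd36) and 1 wholly below (F13a1), beside 22.4% and 23.7% of all tested genes. With 10 genes these counts do not set the list apart. Mrc1, the mannose receptor, stood at 18.3 and 41.5 CPM in wild-type, against 211, 424 and 219 CPM in deleted 2, 4 and 6 (log2 fold change 3.25 ± 0.57, edgeR adjusted p = 0.150; 3.42 ± 0.48 and 0.00714 without deleted 6). C1qb, a chain of complement C1q, stood at 34.4 and 88.6 CPM in wild-type and at 26.9, 134 and 8.53 CPM in the deleted libraries. C1qa and C1qc, like C1qb, were highest in deleted 4, where Maf was highest. C1qb and C1qc were lowest in deleted 6, where Maf, at 7.78 CPM, was above both wild-type libraries. C1qa was lowest in deleted 2, where Maf was lowest. Il10, a c-MAF target in activated macrophages, was at most 0.121 CPM.

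The genes whose pattern over the 5 libraries was most like each member were found by the root mean square difference of centred log2 CPM, over genes whose log2 CPM averaged 3 or more. Bach2 was nearest to Furin, Hs6st1 and Fam213a, at 0.213, 0.215 and 0.221. Furin stood at 130 and 146 CPM in wild-type, against 767, 429 and 608 CPM in deleted 2, 4 and 6. Maf was nearest to Igf1, Ifi204 and Rnase4, at 0.198, 0.324 and 0.363. Igf1 stood at 45.9 and 62.2 CPM in wild-type and at 33.9, 144 and 127 CPM in deleted 2, 4 and 6. Spic had no close match: Serpinb2, Socs2 and Slc7a11 were nearest, at 0.499, 0.511 and 0.527. Mafg (Pias2, Nxf1 and Prkra), Mafk (Ebpl, Commd9 and Adprhl2), Bach1 (Sos1, Slc35a3 and Atl3) and Maff (Tnfaip8l2, Smim13 and Man1a2) had neighbours at 0.019 to 0.09. With 5 libraries many genes share a pattern, and likeness here is a description.

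**Figure D4:**
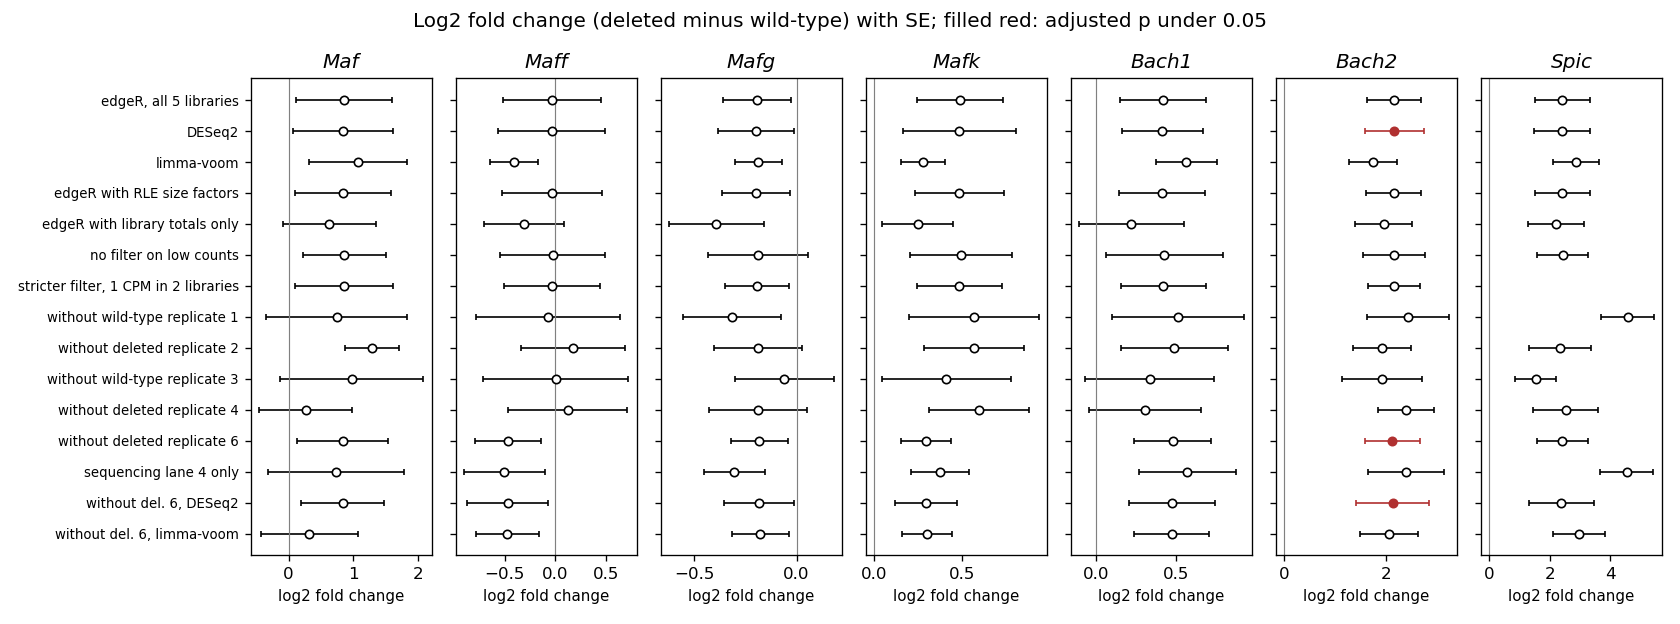
Log2 fold change (deleted minus wild-type, horizontal axis, 1 panel per gene) with 1 SE for each test and choice of libraries; filled red points have an adjusted p under 0.05. Bach2 lies between 1.75 and 2.43 and passes in 3 settings; Maff changes sign; Spic is missing under the stricter filter.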

How the data were processed

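The submitters' processing notes name mm10, STAR, bcl2fastq 1.8.4 and DESeq2 1.12.4; the annotation and the settings for counting are not given in the sources used. The authors deposited whole-number read counts for 46603 genes per library, a table of normalized signal (the same counts over a size factor for each library), and a log2 table that was not used in tests. Rows naming no gene were left out (unaligned reads 2.48% to 4.13%, multiply aligned 13.0% to 15.1%, no feature 5.89% to 8.09%, ambiguous 2.36% to 2.78% of all reads).

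Counts were filtered with filterByExpr (16120 genes kept), scaled by TMM and tested on genotype with edgeR 4.0.16 (glmQLFit, glmQLFTest; limma 3.58.1, DESeq2 1.42.0, R 4.3.3), with Benjamini-Hochberg adjustment over all genes, a threshold of 0.05 and 3 residual degrees of freedom. The SE is the fold change over the square root of F. A count of 3 equals 0.0526 to 0.0723 CPM. No library was a copy of another (lowest chi-square of a pair 44.7 per gene). The test was checked on simulated data. Exon lengths are from GENCODE M21, promoters from RefSeq GRCm38.p6. The members, lists and rules were chosen with earlier results of these data known. The rule for names took all 7 members, up to 3 genes per direction and list by unadjusted p, all partners and relatives, marker genes, and the 3 nearest patterns; further genes named from the lists were chosen after their values were seen. Alternatives were DESeq2, limma-voom, other scalings and filters, each library left out, and lane 4 alone. Results for some list genes are not reported here.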

Additional observations from a re-analysis of the deposited data

How the results depend on the processing

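No paired analysis was possible because the groups share no replicate number. Leaving out deleted 6 was looked at in detail after its values were known, and DESeq2 and limma-voom on those 4 libraries were added after seeing the data. Across all alternatives the log2 fold changes of Maf, Mafg, Mafk, Bach1, Bach2 and Spic kept their direction, and none of these but Bach2 passed. Bach2 passed in DESeq2 (2.17), in edgeR without deleted 6 (2.13) and in DESeq2 without deleted 6 (2.13), and ranged from 1.92 to 2.43 when 1 library was left out (adjusted p 0.0488 to 0.841). Maff was at -0.47 to 0.17 with single libraries left out: it turned positive without deleted 2 (0.17), wild-type 3 (0.0027) or deleted 4 (0.12); the cause was not tested. Scaling by library totals alone moved the median of all genes from 0.01 to -0.19, and the members moved with it (Bach1 to 0.22, Mafg to -0.39). The stricter filter gave no value for Spic. The numbers of genes called higher and lower, 0 and 0 in edgeR across all 5 libraries (smallest adjusted p 0.103; 1522 and 874 at an unadjusted p under 0.05), were 927 and 492 in DESeq2, 1230 and 947 in limma-voom, 163 and 115 with no filter on low counts, and 211 and 131 in lane 4 alone. With single libraries left out they ran from 0 to 1245 and from 0 to 800, both highest without deleted 6. Without deleted 6 they were 1716 and 1209 in DESeq2, and 1188 and 788 in limma-voom. Bach2 and Spic rest on few counts in wild-type, 31 and 15 in sum, which limits their ratios.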

Other observations

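Genes tied to BACH2 in lymphoid cells gave a few values that the comparisons above do not cover. Of 10 such genes 6 passed the filter on low counts, and edgeR, without deleted 6, called 1 of them higher and 0 lower, beside 7.89% and 5.07% of all genes. That gene was Il7r, the interleukin-7 receptor chain, at 64.3 and 60.5 CPM with Plcg1 wild-type and at 174, 232 and 754 CPM in deleted 2, 4 and 6 (log2 fold change 1.71 ± 0.17, adjusted p = 0.00248). Across all 5 libraries its adjusted p was 0.262 (log2 fold change 2.63 ± 0.75). Prdm1, the plasma cell factor that BACH2 represses, stood at 3.64 and 3.87 CPM in wild-type and at 3.03, 6.36 and 10.97 CPM in deleted 2, 4 and 6 (adjusted p = 0.507). Irf4, a factor of lymphoid and some myeloid cells, stood at 0.0241 and 0.793 CPM in wild-type and at 1.66, 2.38 and 8.34 CPM in the deleted libraries, without overlap (edgeR adjusted p = 0.367). Dendritic cells also express Irf4, and their 6 markers summed to 13.4 and 12.8 CPM in wild-type and to 123, 102 and 767 CPM in deleted 2, 4 and 6. Itgax carried that sum, at 11.5 and 8.25 CPM, then at 119.5, 97.5 and 756 CPM. Of the 5 tested dendritic cell markers, 3 had a negative log2 fold change across all 5 libraries. The part of these markers in the values above was not tested.

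The level of Nfe2 relative to Bach1, which compete for the same small MAF partners, ran from 83.2 and 102 times per kilobase in wild-type 1 and 3 through 48.7 and 26.4 times in deleted 2 and 4 to 0.684 times in deleted 6. Nfe2l2 relative to Bach1 stayed between 40.5 and 53.3 times in the other 4 libraries and was at 81.1 times in deleted 6.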
